A study of Mus musculus with 6 samples.

Results

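The cytosolic ribosomal protein genes encode the proteins of the cytoplasmic ribosome. They were taken from the gene table as all protein-coding entries whose name begins with Rpl, Rps or Rplp and a number, or is Rpsa, without the ribosomal S6 kinases (Rps6k) and without names ending in -ps, with or without a number, which left out 7 protein-coding entries. The rule returned 87 of the 49164 genes with counts listed. Of these, 46 encode proteins of the large subunit and 31 proteins of the small subunit, and these 77 are called the core genes here. Another 7 are paralogs of core genes (Rpl3l, Rpl7l1, Rpl10l, Rpl22l1, Rpl36al, Rpl39l and Rps27l). The last 3 matched by name alone. Rps19bp1 encodes a protein that binds Rps19 and is not itself a ribosomal protein, and Rps23rg1 and Rps27rt are retrogenes, gene copies made from a reverse-transcribed mRNA.

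A ribosome holds 1 copy of nearly every one of these proteins, so their mRNAs are made in similar amounts and in almost every cell. Most of these mRNAs begin with a terminal oligopyrimidine (TOP) tract, through which mTOR signalling and the RNA-binding protein Larp1 control their translation as a group. Growing and dividing cells carry much of this RNA. In the olfactory epithelium, dividing basal cells replace sensory neurons throughout life.

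Bulk RNA-seq libraries were made from nasal conchae, the folds that carry the olfactory epithelium, of 6 mice of 3 months of age, with 3 replicates per group. The sFlt1 mice came from a cross of the camk2a-tTa and tet-sFlt1 lines, which yields tetracycline-controlled soluble Flt1, a receptor fragment that sequesters VEGF. It was induced by taking away tetracycline at embryonic day 13.5, and their olfactory bulbs at 2 months were 28%, 29% and 14% of normal size for replicates 1, 2 and 3. The controls are labelled wild type and untreated, with bulbs of normal size. All 6 are labelled as male c57Bl6/ICR crossbreds. The Camk2a promoter is known for activity in forebrain neurons, and the labels do not say whether the controls carry either transgene. Flt1 had 6.42, 2.36 and 9.79 CPM in sFlt1 mice, against 3.71, 2.81 and 11.1 CPM in controls, and the labels do not say whether transgene reads would be counted as Flt1.

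Library totals were 30300680, 41669010 and 44449029 counts in sFlt1 mice and 32194320, 28832424 and 46444862 counts in controls. Counts are given as CPM, read counts relative to library size after TMM adjustment. Omp, the marker of mature olfactory neurons, had 1317, 2366 and 466 CPM in sFlt1 mice, against 3598, 4056 and 2836 CPM in controls. Xist, which is expressed from an inactive X chromosome, had 524 CPM in sFlt1 replicate 3 and 709.9 CPM in control replicate 1, and at most 0.371 CPM in the other 4 libraries. The summed CPM of 4 Y-linked genes was 1.01 in sFlt1 replicate 3 and 4.51 in control replicate 1, and 173 or more in each of the other 4. These 2 libraries go against the label of male, and results are also given without them. Control replicate 3 stood apart in markers of brain interneurons, with a summed level of 1776 CPM against at most 317 CPM in each other library. The other controls differed from sFlt1 mice too. In 7 of these 10 markers every sFlt1 library was below every control library, against 9.51% of all genes tested. In 0 of the 10 was every sFlt1 library above every control library.

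Start-site sequences are shown because the TOP tract that the group is known for lies at the start of the mRNA. A RefSeq promoter was matched by symbol for 66 of the 87 genes and for 57 of the 77 core genes. Each line gives 45 bases before and 15 after the annotated start, 5′ to 3′ on the gene's strand, in build GRCm38.p6. Capitals mark CTTTCC or CTTTTC, short pyrimidine runs searched on the gene's strand, CCGGAAG, an ETS-type motif searched on both strands, and TATAAA, searched on the gene's strand. Rpl18, Rpl4 and Rpl38 show the pyrimidine run close to the start, Rpl37 the ETS-type motif without it, and Rps4x no match. Rps27 and its paralog Rps27l differ in the run, and Rpl22l1 is a paralog with TATAAA.
Rpl18, chr7:45718026-45718085, plus strand: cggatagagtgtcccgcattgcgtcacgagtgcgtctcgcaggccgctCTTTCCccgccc
Rpl4, chr9:64173342-64173401, plus strand: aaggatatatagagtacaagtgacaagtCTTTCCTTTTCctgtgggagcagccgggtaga
Rpl38, chr11:114668535-114668594, plus strand: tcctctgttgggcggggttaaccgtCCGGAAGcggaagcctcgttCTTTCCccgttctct
Rpl37, chr15:5116568-5116627, plus strand: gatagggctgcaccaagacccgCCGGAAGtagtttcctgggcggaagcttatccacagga
Rps4x, chrX:102189377-102189436, minus strand: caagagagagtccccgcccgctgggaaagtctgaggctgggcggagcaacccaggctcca
Rps27, chr3:90213634-90213693, minus strand: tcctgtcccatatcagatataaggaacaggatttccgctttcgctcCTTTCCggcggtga
Rps27l, chr9:66946041-66946100, plus strand: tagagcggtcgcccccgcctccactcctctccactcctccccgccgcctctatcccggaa
Rpl22l1, chr3:28805463-28805522, plus strand: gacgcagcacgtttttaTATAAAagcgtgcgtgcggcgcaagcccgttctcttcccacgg

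Within 50 bases of the start on either side, CTTTCC or CTTTTC was present in 25 of 57 core genes (43.9%) and in 1183 of all 16519 promoters (7.16%). Among mitochondrial ribosomal protein genes, which make the separate ribosome of that organelle, it was present in 7 of 69 (10.1%). Rpl4 holds CTTTCC and CTTTTC joined in 1 run, and the 2 motifs can overlap in this way. CCGGAAG, searched from 250 bases before to 50 after the start, was present in 22 of 57 core genes (38.6%), 25 of 69 mitochondrial ribosomal protein genes (36.2%) and 2038 of all promoters (12.3%). AAGATGGC, a YY1-type motif searched on both strands of the same window, was present in 4 core genes (7.02%), 12 mitochondrial ribosomal protein genes (17.4%) and 550 of all promoters (3.33%). TATAAA in the 50 bases before the start was present in 0 of 57 core genes, 0 of 69 mitochondrial ribosomal protein genes and 570 of all promoters (3.45%). These are matches of letters to an annotated start and say nothing of binding.

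The core genes were nearly all expressed at high levels, and those in the middle of the order were close to one another. Compared per length, as CPM per kilobase of the annotated transcript averaged over the 6 libraries, the lower and upper quartiles of the core genes lay at 242 and 474, with a median of 352. Rps27, a small-subunit protein with a zinc finger, had the highest level per length, 1477 CPM per kilobase. Rpl41, one of the smallest proteins of the cell, followed with 1072. At the low end, Rps10 had 1.82, Rpl24 had 2.72 and Rpl13a had 10.2 CPM per kilobase, all 3 named after their values were seen. The next lowest was Rps15a at 45.9, whose annotated transcript is 5130 bases long. The level of Rps27 was 32.2 times that of Rps15a. Of the core genes, 62 have at least 1 entry of the same name ending in -ps in the table, with or without counts listed. Across the 77, the number of such entries and the level per length had a Spearman rho of 0.009. The sources used here do not say how reads shared with near-identical copies were assigned, so the levels of Rps10, Rpl24 and Rpl13a are uncertain.

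The ribosomal protein genes took up a larger share of all counts in each sFlt1 library than in any control library. The 87 genes together made up 2.92%, 2.32% and 2.22% of counts in sFlt1 mice, against 2.17%, 2.01% and 1.69% in controls. The groups did not overlap, but sFlt1 replicate 3 and control replicate 1 were nearly level. The means were 2.49% ± 0.377 in sFlt1 mice and 1.96% ± 0.242 in controls (SD, n = 3 each), a difference of 0.527 percentage points and a ratio of 1.27. Counting error was small beside this spread, with a 95% Wilson interval of 2.91% to 2.92% for sFlt1 replicate 1 and of 1.69% to 1.70% for control replicate 3. Intervals cover counting error only. No test is given for a sum over the genes.

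Both subunits took part. Large-subunit genes held 1.43% ± 0.204 of counts in sFlt1 mice and 1.14% ± 0.15 in controls, and small-subunit genes held 1.03% ± 0.168 in sFlt1 mice and 0.796% ± 0.0938 in controls (SD, n = 3 each). The ratio of large-subunit to small-subunit counts was 1.37, 1.36 and 1.45 in sFlt1 mice, against 1.49, 1.38 and 1.44 in controls, and the groups overlapped. Mitochondrially encoded genes, 13 protein genes of the organelle's own genome, held 3.81%, 4.89% and 3.89% of counts in sFlt1 mice, against 5.98%, 4.87% and 6.60% in controls. The 13 were counted very unevenly. mt-Co1 had between 365391 and 935699 reads per library, mt-Co2 between 63 and 134 and mt-Nd4l between 0 and 24. The sum thus rests on a part of the 13. Without the 13 genes in the total, the difference in the ribosomal protein share was 0.515 percentage points. In bulk tissue, fewer cells of a type and less RNA per cell cannot be told apart.

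**Figure D1:**
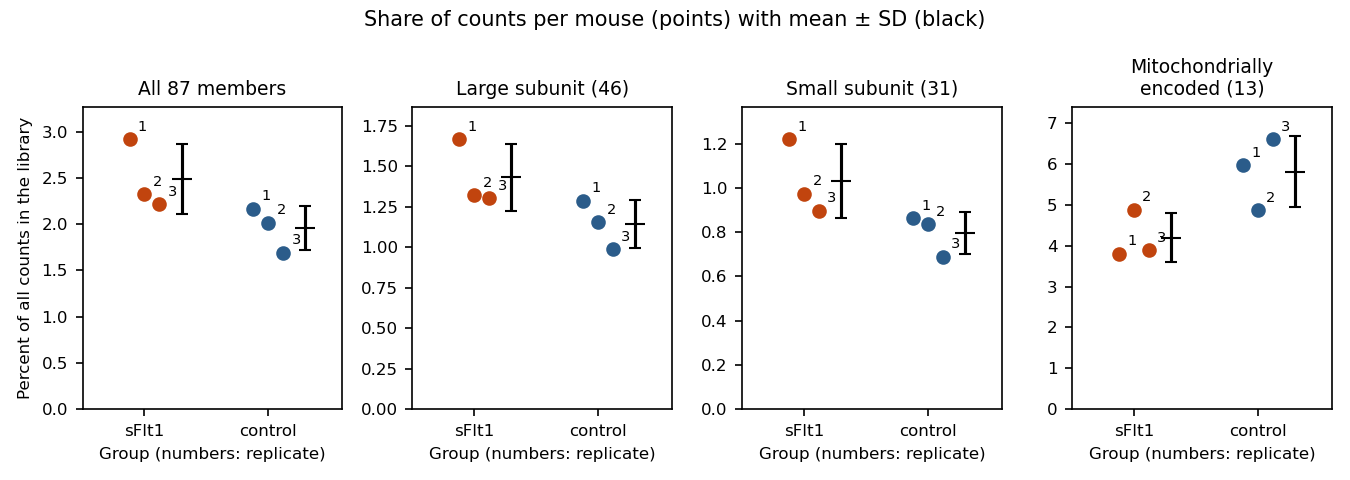
Share of all counts in each library (percent, axis from 0) held by the 87 ribosomal protein genes, the 46 large-subunit genes, the 31 small-subunit genes and 13 mitochondrially encoded genes. Points are mice, numbered by replicate, with sFlt1 on the left and control on the right, and black marks give mean ± SD (n = 3 each); the share of the 87 genes lies between 2.22% and 2.92% in sFlt1 mice and between 1.69% and 2.17% in controls.

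No single ribosomal protein gene passed the test, yet their estimates leaned to one side. After a filter on low counts, 84 of the 87 were tested with edgeR's quasi-likelihood test. The 3 left out were Rpl10l, with 0 counts in all 6 libraries, Rpl3l and Rps27rt. None had a Benjamini-Hochberg adjusted p under 0.05 in edgeR, where the share called over all genes was 0% (0 of 19899). The smallest adjusted p among them was 0.43. At an unadjusted p under 0.05, edgeR gave 5 genes higher in sFlt1 mice and 0 lower, against 4.84% of all genes higher and 6.24% lower. DESeq2 called 0 of them, with a smallest adjusted p of 0.27 and 1 at an unadjusted p under 0.05, Rps23rg1, while it called 0.597% of all genes higher and 1.48% lower. Rps23rg1 is also 1 of the 5 in edgeR, where it passed the filter on low counts through the sFlt1 mice, in which it is high. It is thus no support for a difference. The rest of the 5 are 1 large-subunit gene and 3 small-subunit genes. In the authors' deposited table, 85 of the 87 have an adjusted p, the smallest is 0.307, and 81 have a log2 fold change above 0.

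The edgeR estimate of the log2 fold change (sFlt1 over control) was above 0 for 80 of the 84 genes (95.2%), against 51.3% of all genes tested. Its median over the 84 was 0.33, against 0.02 over all genes tested. Of the 84, 69 lay between 0.15 and 0.60. These genes are co-regulated and were measured in the same libraries, so the 84 are not separate observations. The median was 0.31 in the large subunit, where all 46 estimates were above 0, and 0.33 in the small subunit, where 30 of 31 were. The smallest of the 46, Rpl21 at 0.002, was at -0.00114 with upper quartile factors.

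In 15 of the 84 genes (17.9%) every sFlt1 library was above every control library, against 8.76% of all genes tested. In 0 of the 84 was every sFlt1 library below every control library, against 9.51% of all genes. The 15 were the large-subunit genes Rpl7, Rpl13, Rpl23, Rpl24, Rpl37, Rpl38 and Rplp0, the small-subunit genes Rps3a1, Rps4x, Rps15a, Rps19, Rps20, Rps25 and Rps28, and the retrogene Rps23rg1. Rps23rg1 passed the filter on low counts through the sFlt1 mice, where it is high, so it is no support for a difference. Without sFlt1 replicate 1, 85 of the genes were tested. Of these, 13 were apart with sFlt1 higher and 3 with sFlt1 lower, against 14.2% and 12.4% of all genes. The 13 were thus near the share over all genes, and the 3 were below it. With sFlt1 replicate 2, sFlt1 replicate 3 or control replicate 2 left out, 46, 29 or 27 were apart with sFlt1 higher, against 14.8%, 15.5% and 12.7% of all genes. Without both Xist libraries the count was 44, against 23.5% of all genes. That run keeps sFlt1 replicates 1 and 2 and control replicates 2 and 3.

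**Figure D2:**
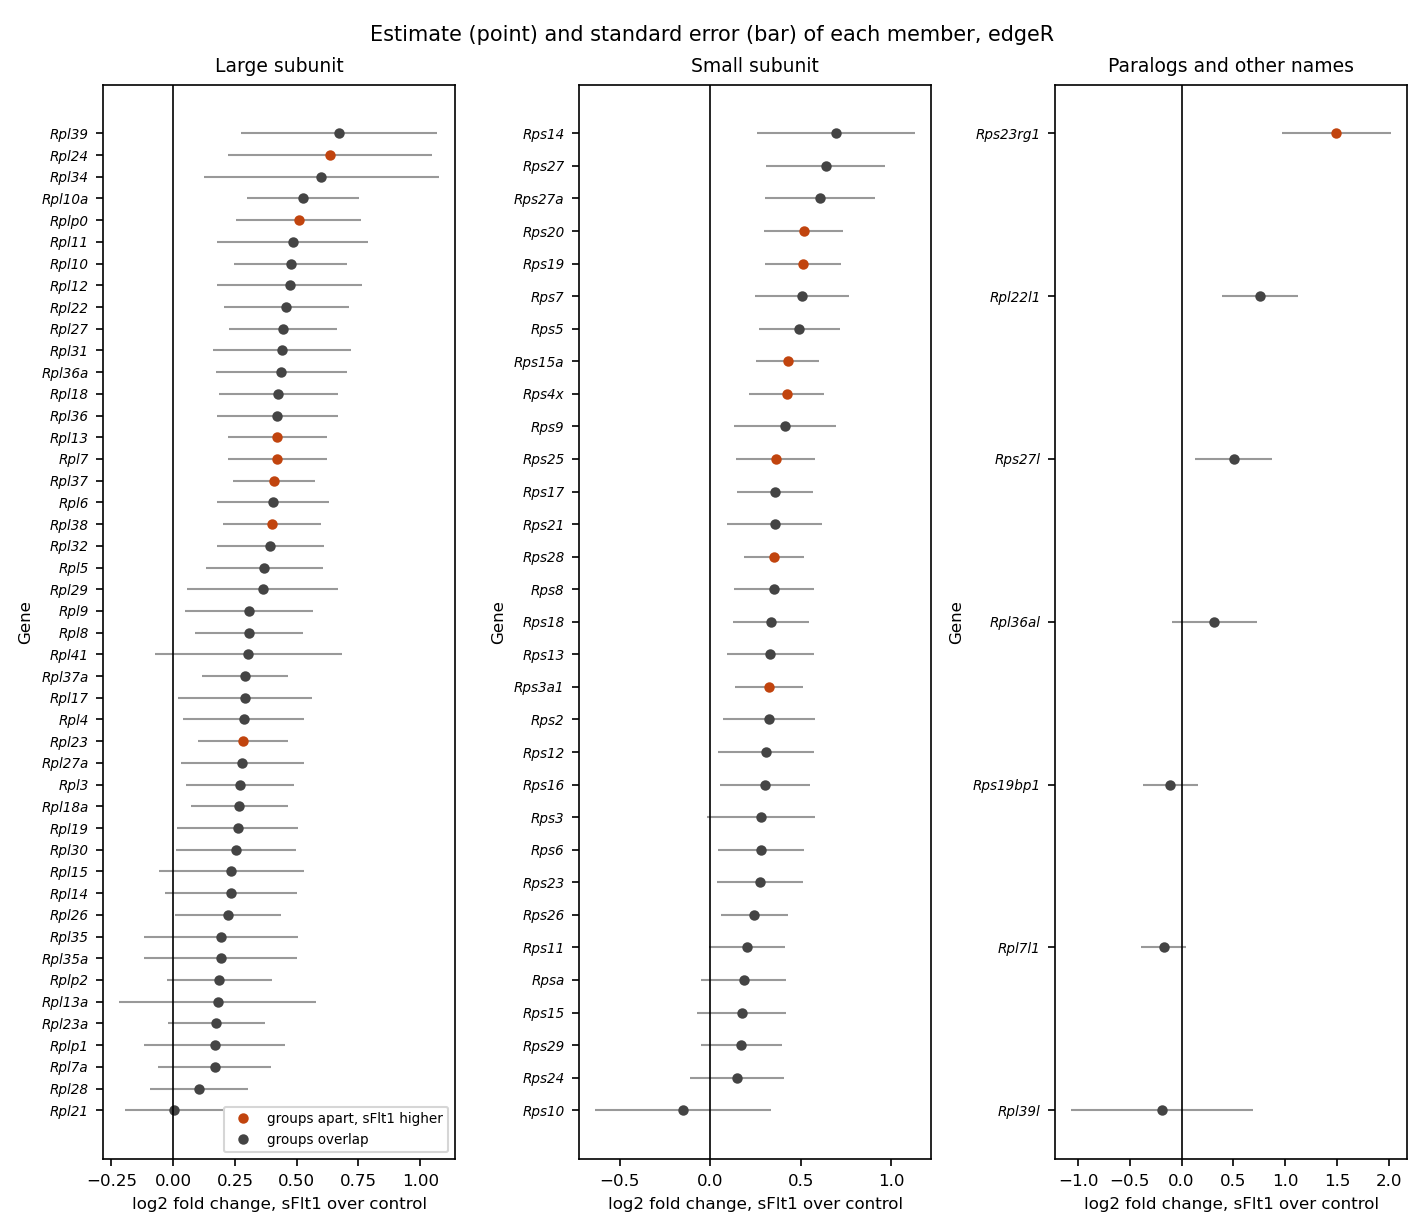
Log2 fold change (sFlt1 over control, horizontal axis) of the 84 ribosomal protein genes tested, by subunit, as edgeR estimate (point) and standard error (bar). The standard error was derived from the estimate and the F of the test. Red points are the 15 genes whose 3 sFlt1 libraries all lay above the 3 control libraries. Rps23rg1 among them passed the filter on low counts through the sFlt1 mice and is no support for a difference. All large-subunit estimates lie above 0, with Rpl21 on the line at 0.002 (-0.00114 with upper quartile factors). In the small subunit Rps10 alone lies below 0.

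Much of the shift came from 1 mouse. sFlt1 replicate 1 had the highest level of the 6 libraries for 71 of the 77 core genes, and control replicate 3 had the lowest for 41. The mean deviation of the core genes from their own 6-library means, on the log2 CPM scale, was 0.50, -0.05 and 0.03 in sFlt1 replicates 1, 2 and 3 and -0.10, -0.08 and -0.30 in control replicates 1, 2 and 3. Without sFlt1 replicate 1, the median log2 fold change was 0.19 over 85 genes tested and 70 were above 0. Of the genes named below, Rpl41, Rplp1, Rps3, Rps15, Rps24 and Rpsa were then below 0, at -0.18 to -0.0263. The median was 0.29 without control replicate 3, and 0.42 without both libraries with Xist reads. The difference in the share of counts was 0.312 percentage points without sFlt1 replicate 1, 0.395 without control replicate 3 and 0.766 without both Xist libraries. Leaving out both Xist libraries keeps only sFlt1 replicates 1 and 2 and control replicates 2 and 3. The libraries with the highest and the lowest mean deviation thus remain, so the larger values there do not strengthen the result.

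**Figure D3:**
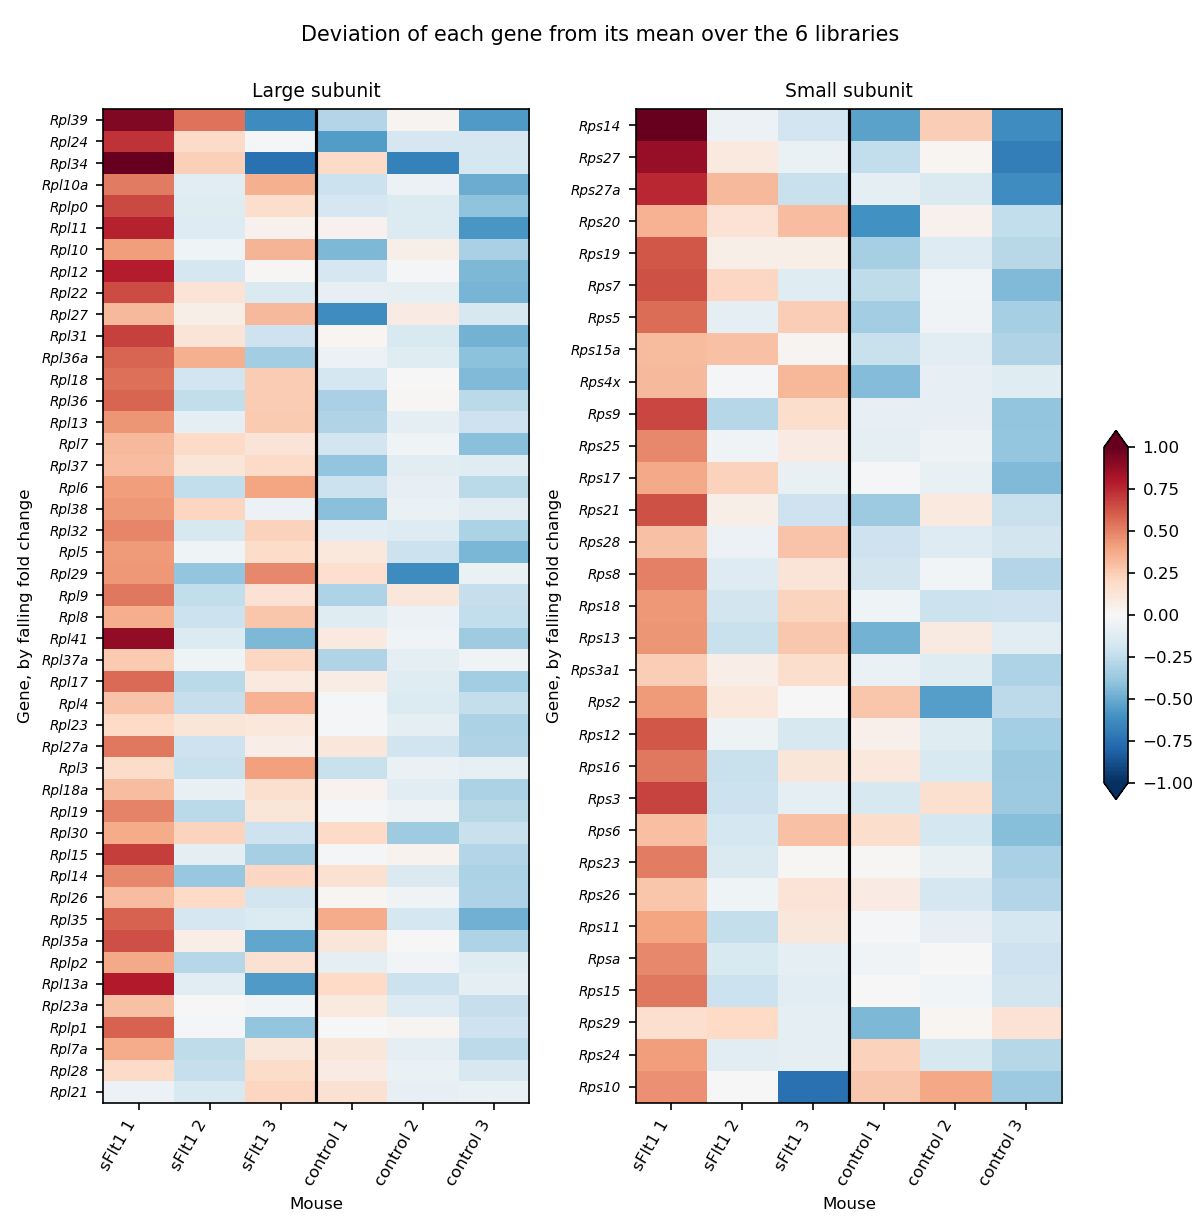
Deviation of each of the 77 core genes (rows, ordered by fold change within each subunit) from its mean over the 6 libraries, in log2 CPM, with the 3 sFlt1 mice left of the black line and the 3 controls right of it. sFlt1 replicate 1 is the highest library for 71 of the 77 genes and control replicate 3 the lowest for 41.

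The 3 proteins of the stalk, the arm of the large subunit that recruits elongation factors, had estimates of different size. Rplp0, its base, had 633, 369 and 453 CPM in sFlt1 mice, against 356, 364 and 303 CPM in controls. The groups were apart by little, since sFlt1 replicate 2 lay just above control replicate 2. Its log2 fold change was 0.51 ± 0.25 (SE; adjusted p in edgeR = 0.50). The acidic tip proteins had smaller estimates, 0.17 ± 0.29 for Rplp1 and 0.19 ± 0.21 for Rplp2 (SE), both with overlapping groups. The ratio between stalk members was not tested.

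Rpl5 and Rpl11 bind the smallest ribosomal RNA as a unit, and outside the ribosome the same unit binds Mdm2, the inhibitor of p53. Rpl11 had 567, 304 and 342 CPM in sFlt1 mice, against 343, 302 and 222 CPM in controls. sFlt1 replicate 1 was far above the rest, and the other sFlt1 libraries lay within the range of the controls. Its log2 fold change was 0.48 ± 0.30, and that of Rpl5 was 0.37 ± 0.24 (SE; adjusted p in edgeR = 0.58 and 0.59).

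Rpl4, Rpl17 and Rpl39 line the tunnel through which the new protein leaves. Rpl4 was the large-subunit gene with the highest mean CPM, with 854, 598 and 896 CPM in sFlt1 mice, against 694, 638 and 595 CPM in controls. sFlt1 replicates 1 and 3 were above all controls and sFlt1 replicate 2 was level with the lowest of them. Rpl39, a very small X-linked member, had 472, 362 and 161 CPM in sFlt1 mice, against 203, 254 and 168 CPM in controls. It had the largest log2 fold change of the large subunit, 0.67 ± 0.40 (SE; adjusted p in edgeR = 0.56), but sFlt1 replicate 3 lay below all 3 controls. Rpl41, the other large-subunit gene with a high mean, had 1023, 504 and 407 CPM in sFlt1 mice, against 594, 540.1 and 432 CPM in controls, and sFlt1 replicate 1 alone stood above the controls.

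Other large-subunit genes at the top of the order were Rpl24 and Rpl34. Rpl24, which forms bridges to the small subunit, had 2.95, 2.03 and 1.75 CPM in sFlt1 mice, against 1.19, 1.57 and 1.56 CPM in controls, with the groups apart at a low level. Rpl34 had 342, 180.0 and 90.9 CPM in sFlt1 mice, against 174, 95.5 and 135 CPM in controls, with sFlt1 replicate 1 highest and sFlt1 replicate 3 lowest of all 6. Rpl37 (GRCm39 chr15:5146127-5148622) had the smallest p of the large subunit, with 179, 157 and 165 CPM in sFlt1 mice, against 110.2, 135 and 133 CPM in controls. Its groups were apart, at a log2 fold change of 0.41 ± 0.17 (SE; unadjusted p = 0.0433 and adjusted p = 0.44 in edgeR). Rpl10a and Rpl13 had the next smallest p, at log2 fold changes of 0.52 ± 0.23 and 0.42 ± 0.20 (SE).

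The smallest estimates of the large subunit belonged to Rpl21, Rpl28 and Rpl7a. Rpl21 had 356, 334 and 430.4 CPM in sFlt1 mice, against 414, 351 and 354 CPM in controls, with overlapping groups, at a log2 fold change of 0.00 ± 0.20. Rpl28 was at 0.10 ± 0.20 and Rpl7a at 0.17 ± 0.23 (SE). A p that misses the threshold does not show that their levels were equal.

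In the small subunit, the largest estimates belonged to Rps14, Rps27 and Rps27a. Rps14, which sits in the platform near the messenger RNA, had 736, 314 and 287 CPM in sFlt1 mice, against 225, 388 and 212 CPM in controls. sFlt1 replicate 1 was far above the other 5, and control replicate 2 was above the other 2 sFlt1 libraries. Rps27 had 884, 517 and 461 CPM in sFlt1 mice, against 407, 489 and 299 CPM in controls, and control replicate 2 again lay within the sFlt1 range. Rps27a, made as a fusion with ubiquitin, had 735, 547 and 375 CPM in sFlt1 mice, against 410.5, 395 and 283 CPM in controls, at a log2 fold change of 0.60 ± 0.30 (SE; adjusted p in edgeR = 0.50).

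Smaller but more even differences were seen in Rps15a, Rps19 and Rps20, the small-subunit genes with the smallest p. Rps20, in the head of the subunit, had 335, 291 and 326 CPM in sFlt1 mice, against 173, 271 and 222 CPM in controls. All 3 sFlt1 libraries were above all 3 controls. Rps19, whose loss of function underlies Diamond-Blackfan anaemia in people, had 260.3, 176 and 176 CPM in sFlt1 mice, against 135, 154 and 140.0 CPM in controls, again apart. Rps15a had 289, 284 and 236 CPM in sFlt1 mice, against 199, 214 and 189 CPM in controls, apart as well. Their log2 fold changes were 0.52 ± 0.22 for Rps20, 0.51 ± 0.21 for Rps19 and 0.43 ± 0.17 for Rps15a (SE), with edgeR unadjusted p of 0.0493, 0.0465 and 0.0439 and an adjusted p of 0.45 for each.

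The proteins along the path of the messenger RNA in the small subunit (Rps2, Rps3, Rps15, Rps23, Rps26, Rps28 and Rpsa) had a median log2 fold change of 0.27, from 0.17 to 0.35. Rps28, next to the exit of the path, had 152, 119 and 151 CPM in sFlt1 mice, against 108, 113 and 109 CPM in controls, with groups apart. Rps3, at the entry, had 590.4, 319 and 346 CPM in sFlt1 mice, against 331, 413 and 288 CPM in controls, with overlap. At the bottom of the subunit's order were Rps10 at -0.15 ± 0.49, Rps24 at 0.15 ± 0.26 and Rps29 at 0.17 ± 0.22 (SE). Rps10 had 2.14, 1.55 and 0.896 CPM in sFlt1 mice, against 1.87, 2.03 and 1.18 CPM in controls, a low and uncertain level, and Rps24, the small-subunit gene with a high mean beside Rps27, had 747, 517 and 525 CPM in sFlt1 mice, against 656, 500.1 and 459 CPM in controls.

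The 4 X-linked members, Rps4x, Rpl10, Rpl36a and Rpl39, all had estimates above 0, with a median log2 fold change of 0.46. Rps4x had 457, 362 and 459 CPM in sFlt1 mice, against 270.2, 346 and 337 CPM in controls, with groups apart. Rpl10, needed for the joining of subunits, had 447, 325 and 424 CPM in sFlt1 mice, against 245, 349 and 267 CPM in controls, with an overlap by control replicate 2. Of the libraries with Xist reads, sFlt1 replicate 3 was the highest of 6 for Rps4x and the lowest of 6 for Rpl39, and control replicate 1 was the lowest of 6 for Rps4x and Rpl10.

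Among paralogs, Rpl22l1 and Rps27l had estimates above those of most core genes. Rpl22l1, a paralog that Rpl22 holds down in mouse, had 123, 99.8 and 52.3 CPM in sFlt1 mice, against 41.2, 75.3 and 46.5 CPM in controls. The groups overlapped, and sFlt1 replicates 1 and 2 were the highest. Its log2 fold change was 0.76 ± 0.37 (SE; adjusted p in edgeR = 0.49). Rps27l, a p53 target, had 127, 83.2 and 51.1 CPM in sFlt1 mice, against 55.5, 82.96 and 45.9 CPM in controls, and sFlt1 replicate 2 was level with control replicate 2. Rpl7l1 (GRCm39 chr17:47084833-47093598), related to a ribosome assembly factor of yeast, had an estimate below 0, -0.17 ± 0.22 (SE), with 53.98, 47.1 and 32.98 CPM in sFlt1 mice, against 49.8, 46.7 and 54.6 CPM in controls. The estimate was 0.00343 without sFlt1 replicate 3.

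The others had few counted reads. How reads shared with a close copy were assigned is not known here, so low levels of paralogs and retrogenes are uncertain. Rpl36al and Rpl39l, of which Rpl39l is known from testis, were under 1 CPM in every library. Rpl3l, known from striated muscle, had 0.737 CPM in sFlt1 replicate 1 and at most 0.268 CPM elsewhere. Rps27rt had 2, 0 and 0 reads in sFlt1 mice, against 0, 0 and 0 in controls. Rps23rg1 (GRCm39 chr8:3617990-3634939) had the largest estimate of all, 1.495 ± 0.53 (SE; adjusted p in edgeR = 0.43), from 30, 25 and 22 reads in sFlt1 mice, against 6, 6 and 15 in controls. The groups were apart, on few reads. With under 10 reads in 2 controls, it passed the filter on low counts through the sFlt1 mice, where it is high, so its estimate and p are no support for a difference. It is among the 5 genes at an unadjusted p under 0.05 and the 15 with groups apart, which number 4 and 14 among the core genes. Rps19bp1 had 9.55, 8.36 and 8.34 CPM in sFlt1 mice, against 8.54, 9.23 and 10.5 CPM in controls, with overlap.

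The ratio of a paralog to its partner within a library does not depend on library scaling, but it can depend on how reads shared by the pair were assigned. It was compared for 7 pairs by exact permutation, two-sided, where 3 against 3 allows no p under 0.1. The log2 ratio of Rpl7l1 to Rpl7 was -3.44, -3.50 and -3.95 in sFlt1 mice, against -3.05, -3.28 and -2.68 in controls. Every sFlt1 mouse was below every control, with a difference of -0.63 (exact p = 0.1, adjusted p = 0.7 over the 7 pairs). The log2 ratio of Rpl22l1 to Rpl22 was -1.45, -1.24 and -1.90 in sFlt1 mice, against -2.30, -1.41 and -1.74 in controls, with overlap (exact p = 0.5, adjusted p = 0.7). That of Rps27l to Rps27 was -2.80, -2.63 and -3.17 in sFlt1 mice, against -2.87, -2.56 and -2.70 in controls, also with overlap (exact p = 0.5, adjusted p = 0.7). The differences for Rpl36al, Rpl39l, Rpl3l and Rps4l over their partners were -0.09, -1.04, -1.96 and -0.15, with exact p from 0.4 to 0.9 and overlapping groups. With 1 mouse left out, the difference ranged from -1.52 to -0.47 for Rpl39l and from -3.95 to -0.82 for Rpl3l. Rpl3l had 0 reads in sFlt1 replicates 2 and 3, where its ratio rests on the pseudocount of 0.5 reads. Rps4l, typed as a pseudogene in the table and so not among the 87, was paired with Rps4x.

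**Figure D4:**
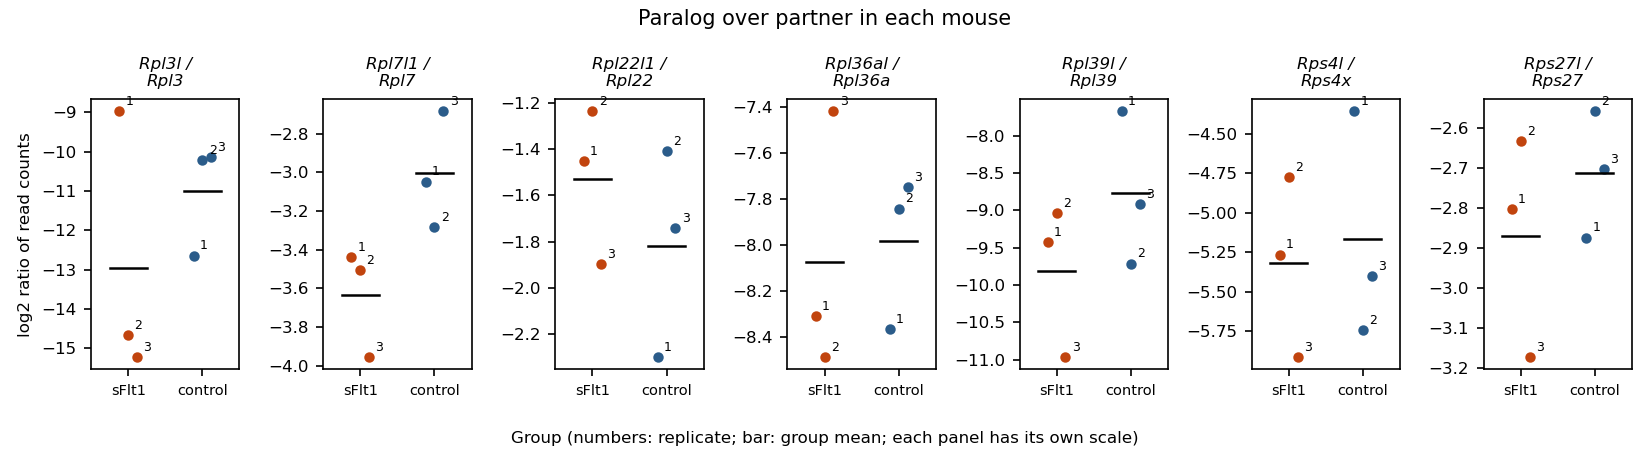
Log2 ratio of the read counts of a paralog to those of its partner (vertical axes, each with its own scale) in each mouse, for 7 pairs, with sFlt1 on the left and control on the right and bars at group means. For Rpl7l1 over Rpl7, the sFlt1 mice lie between -3.95 and -3.44 and the controls between -3.28 and -2.68; the groups overlap in the other 6 pairs.

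Of 329 ribosomal protein pseudogene entries, 136 had 0 counts, and 10 had summed counts of 300 or more. Of these 10, 7 had under 10 reads in at least 1 mouse. Rps18-ps6 (GRCm39 chr13:97896580-97897140) had 2033, 1863 and 2 reads in sFlt1 mice, against 8, 1302 and 5 in controls. Rps18-ps5 had the same 3 mice on, with 457, 428 and 3 reads in sFlt1 mice, against 1, 295 and 1 in controls, and so did Rps7-ps3, with 966, 1044 and 1 reads in sFlt1 mice, against 0, 579 and 0 in controls. In each of these, sFlt1 replicates 1 and 2 and control replicate 2 were high, and the rest were near 0.

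Other entries had another pattern. Rpl34-ps1 had 1, 577 and 764 reads in sFlt1 mice, against 0, 644 and 0 in controls. Rpl15-ps2 had 8, 3 and 832 reads in sFlt1 mice, against 1, 361 and 2 in controls, and Rpl15-ps6 had 32, 39 and 566 reads in sFlt1 mice, against 23, 227 and 25 in controls, so that sFlt1 replicate 3 and control replicate 2 were high in both. Rps2-ps10 was at 0 in sFlt1 replicate 2 and at 1 in control replicate 1, and between 779 and 1212 in the other 4. Rpl3-ps1 was low in 1 library only, with 684, 798 and 565 reads in sFlt1 mice, against 1, 226 and 346 in controls. These mice are crossbred, and whether they differ in carrying these copies was not tested. Added together, all such entries held at most 0.0193% of counts in any library, and the difference in share was 0.533 percentage points with them added to the 87 genes.

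**Figure D5:**
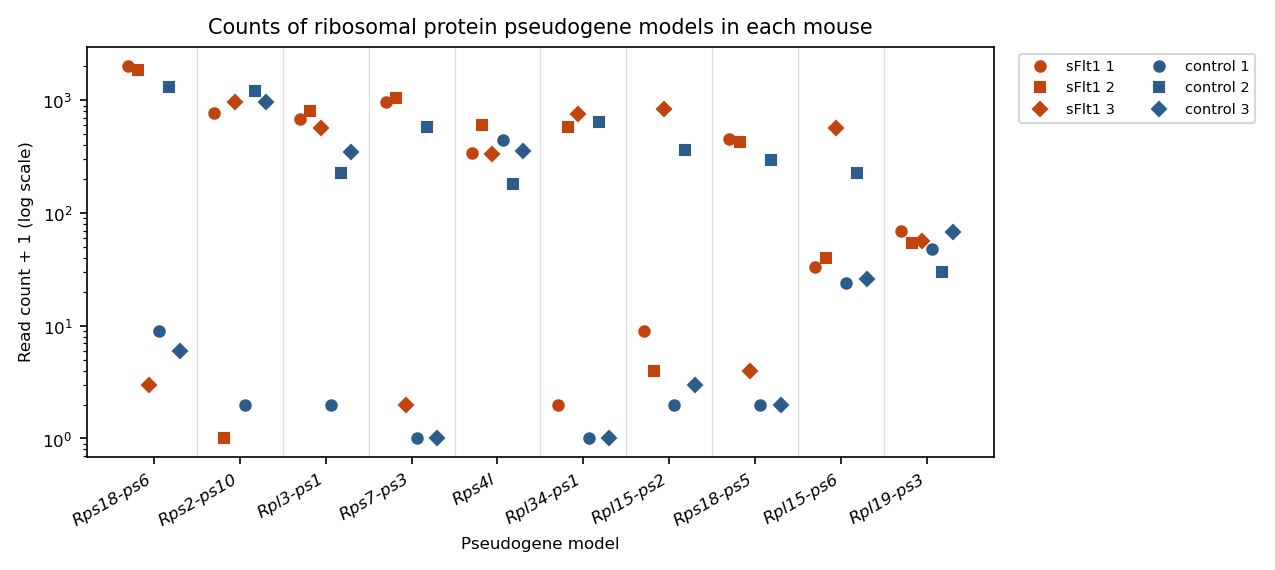
Read count + 1 (log axis) of the 10 ribosomal protein pseudogene entries with summed counts of 300 or more, in each of the 6 mice (red, sFlt1; blue, control; marker shape, replicate). In 7 of the 10 at least 1 library has under 10 reads, in mice of both groups except for Rpl3-ps1, where it is a control; Rps4l, Rpl19-ps3 and Rpl15-ps6 have more than 20 reads in all 6.

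Members of different length did not vary alike within a library. Across the 77 core genes, the Spearman rho between coding length and the deviation of a gene from its 6-library mean was -0.12, -0.40 and 0.41 in sFlt1 replicates 1, 2 and 3, against 0.08, -0.09 and -0.08 in control replicates 1, 2 and 3. Shorter genes were thus relatively high in sFlt1 replicate 2 and relatively low in sFlt1 replicate 3. With transcript length the values were -0.25, -0.30 and 0.31 in sFlt1 mice, against 0.17, -0.15 and -0.04 in controls. Over 1185 other protein-coding genes in the same range of level and transcript length, rho with coding length was -0.31, 0.03 and 0.09 in sFlt1 mice, against 0.04, 0.03 and 0.08 in controls. With transcript length it was -0.33, -0.05 and 0.09 in sFlt1 mice, against 0.03, 0.02 and 0.17 in controls. sFlt1 replicate 1, the library with the highest ribosomal protein share, was thus also the one in which shorter genes outside the group were relatively high. The points of one library share its RNA and preparation, and a part of RNA quality in them was not tested. Core genes with CTTTCC or CTTTTC within 50 bases of the start had a median log2 fold change of 0.31 (25 genes). Those without either had 0.33 (32 genes). Other pyrimidine runs were not searched for, so this does not divide the genes by TOP tract.

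Genes that work with the ribosome were described from lists. Rack1, a scaffold on the small subunit, had 449, 263 and 323 CPM in sFlt1 mice, against 235, 280.3 and 214 CPM in controls, with overlap and a log2 fold change of 0.50 ± 0.25 (SE; adjusted p in edgeR = 0.50). Of 16 genes known to have TOP mRNAs, mostly translation factors but with Npm1 and Hnrnpa1 among them, 15 had estimates above 0. The median of the 16 was 0.29, and 0.16 without sFlt1 replicate 3. In edgeR 0 passed, with 1 at an unadjusted p under 0.05, against 4.84% of all genes higher and 6.24% lower. Eif3e, a subunit of an initiation factor, had 183, 162 and 232 CPM in sFlt1 mice, against 137, 139 and 109 CPM in controls, with groups apart and a log2 fold change of 0.58 ± 0.20 (SE; adjusted p in edgeR = 0.43). Eef1a1, the factor that delivers tRNAs, had 4095, 2826 and 4656 CPM in sFlt1 mice, against 2897, 2943 and 2756 CPM in controls, with overlap. Eef1g was the exception at -0.08 ± 0.26 (SE).

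Of 32 genes of ribosome assembly and of ribosomal RNA transcription, 20 had estimates above 0 and 12 below. Their median was 0.04, and between 0.08 and 0.16 with any 1 mouse left out. The groups were apart with sFlt1 higher in 8 of the 32 and with sFlt1 lower in 1, against 8.76% and 9.51% of all genes tested. In this list 0 passed in edgeR or DESeq2, with 0 at an unadjusted p under 0.05 in edgeR. Gnl3, a nucleolar GTPase of dividing progenitor cells, had 22.9, 20.8 and 41.99 CPM in sFlt1 mice, against 18.6, 17.99 and 20.3 CPM in controls, with groups apart. Bysl, needed for small-subunit assembly, was the 1 gene of the list with groups apart and sFlt1 lower, at 13.3, 11.9 and 7.91 CPM in sFlt1 mice, against 14.9, 16.5 and 16.8 CPM in controls. Of 13 regulators of growth and TOP translation, 8 were above 0 and 5 below, with a median of 0.18, which was -0.00523 without sFlt1 replicate 3. Mycl, a Myc-family transcription factor, was the 1 gene of these lists called by DESeq2, at an adjusted p of 0.00746, while edgeR gave 0.43. It had 55.6, 48.8 and 69.6 CPM in sFlt1 mice, against 29.7, 19.6 and 18.1 CPM in controls, with groups apart. Larp1 was at -0.03 ± 0.20 and Rptor, a part of the mTOR complex, at -0.40 ± 0.21 (SE).

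Of 14 genes listed for ribosome turnover and quality control, Trp53 and Cdkn1a among them, 10 were above 0. The median of the 14 was 0.20, and -0.0215 without sFlt1 replicate 3. None passed in edgeR or DESeq2, and edgeR gave 1 at an unadjusted p under 0.05, against 4.84% of all genes higher and 6.24% lower. Hbs1l, a rescue factor for stalled ribosomes, had 57.1, 53.7 and 63.5 CPM in sFlt1 mice, against 41.8, 44.8 and 47.4 CPM in controls, with groups apart. Of 77 mitochondrial ribosomal protein genes tested, 34 were above 0 and 43 below, with a median of -0.02, which was 0.0691 without sFlt1 replicate 3. None passed in edgeR or DESeq2, with 0 at an unadjusted p under 0.05 in edgeR. Mrpl48 had 54.7, 66.9 and 39.1 CPM in sFlt1 mice, against 72.04, 72.6 and 72.7 CPM in controls, with groups apart and sFlt1 lower, and Mrps18c was at 0.44 ± 0.26 (SE). The difference between the cytosolic and the mitochondrial genes was not tested.

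Levels of cell-type markers are given beside the ribosomal protein share. All 16 cell-cycle genes had estimates above 0, with a median of 1.08 and a summed level of 331, 307 and 218 CPM in sFlt1 mice, against 207, 119 and 124 CPM in controls. None of the 16 passed in edgeR, where 7 had an unadjusted p under 0.05, and DESeq2 called 2. Of 9 markers of neuronal precursors, 7 were above 0, with a summed level of 847, 1032 and 1139 CPM in sFlt1 mice, against 1005, 684 and 555 CPM in controls. DESeq2 called 3 of them and edgeR 0, with 5 at an unadjusted p under 0.05. All 11 markers of mature neurons were below 0, with a summed level of 4637, 8834 and 2587 CPM in sFlt1 mice, against 12789, 13696 and 9943 CPM in controls. Of 9 gland markers, 8 were above 0, with a summed level of 70769.7, 19308 and 32416 CPM in sFlt1 mice, against 26927, 44904 and 12756 CPM in controls. All 10 neutrophil markers were above 0, with 1633, 261 and 839 CPM in sFlt1 mice, against 349, 202 and 182 CPM in controls, and all 8 fibroblast markers, with 8972, 3518 and 892 CPM in sFlt1 mice, against 5957, 1026 and 848 CPM in controls. None of the mature neuron, gland, neutrophil and fibroblast markers passed in edgeR. At an unadjusted p under 0.05 edgeR gave 6, 4, 1 and 0 of them, the 6 lower and the rest higher in sFlt1 mice. DESeq2 called 0, 1, 0 and 0. Over all genes, edgeR gave 4.84% higher and 6.24% lower at an unadjusted p under 0.05. DESeq2 called 0.597% of all genes higher and 1.48% lower.

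Markers of other cell types varied between mice as well. All 6 horizontal basal cell markers had estimates above 0, with a summed level of 295, 242 and 204 CPM in sFlt1 mice, against 184, 157 and 128 CPM in controls. Of 10 immature neuron markers, 7 were above 0, with 1903, 2389.9 and 1941 CPM in sFlt1 mice, against 1893, 1298 and 1625 CPM in controls. Of 9 ciliated cell markers tested, 8 were above 0, with 1189.5, 1466 and 1348 CPM in sFlt1 mice, against 1069, 844 and 407 CPM in controls. Of 8 sustentacular cell markers tested, 4 were above 0, with 6383, 9823 and 8240.3 CPM in sFlt1 mice, against 6621, 11384 and 6502 CPM in controls. Sustentacular cells are the supporting cells of the epithelium. Of 10 macrophage markers, 8 were above 0, with 819, 394 and 919 CPM in sFlt1 mice, against 291, 318 and 227 CPM in controls. Of 8 erythroid markers, 3 were above 0, with 2286, 732 and 269 CPM in sFlt1 mice, against 2129, 1284 and 927 CPM in controls. All 7 skeletal muscle markers tested were above 0, with 129.9, 3.32 and 3.63 CPM in sFlt1 mice, against 5.28, 30.7 and 4.29 CPM in controls, so that sFlt1 replicate 1 stood far above the rest. Lymphocyte markers were scarce, at 46.8, 7.64 and 6.76 CPM in sFlt1 mice, against 13.4, 32.2 and 21.4 CPM in controls for B and plasma cells and at 13.4, 5.06 and 4.57 CPM in sFlt1 mice, against 5.40, 5.73 and 4.16 CPM in controls for T and natural killer cells. None of the genes in these 9 lists passed in edgeR, and DESeq2 called 1, a ciliated cell marker. At an unadjusted p under 0.05, edgeR gave 6 immature neuron, 3 ciliated cell, 2 horizontal basal cell and 2 macrophage markers and 0 of the other 5 lists. Of the 6 immature neuron markers, 5 were higher in sFlt1 mice and Ncam1 was lower. Those of the ciliated cell, horizontal basal cell and macrophage lists were all higher. Over all genes tested, edgeR gave 4.84% higher and 6.24% lower.

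sFlt1 replicate 1, the library with the highest ribosomal protein share, was the highest of 6 in the summed markers of the cell cycle, glands, neutrophils, fibroblasts, horizontal basal cells, B and plasma cells, T and natural killer cells, erythroid cells and skeletal muscle. It was not the highest in those of mature neurons, immature neurons, precursors, sustentacular cells, ciliated cells or macrophages. No marker in these lists that the table holds was at 0 in all 6 libraries. The part of these cells in the ribosomal protein result was not tested.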

How the data were processed

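Per the labels' protocols, libraries were made from 200 ng of total RNA of dissected nasal conchae of each of 6 mice. Per the submitters' processing notes, the named tools are DESeq2 1.26.0, HTSeq 2.0.1, TopHat2 2.2.1 and cutadapt 3.5, and the named build is GRCm39, with no roles given; the sources used here give no counting or strand settings. The deposited table holds raw read counts for 55414 entries, of which 6250 have no values. It also gives the authors' log2 fold changes and adjusted p-values. Another 48 columns of per-sample values were not used.

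The main test was edgeR 4.0.16 in R 4.3.3, with TMM factors, a filterByExpr minimum count of 10, no covariate and the quasi-likelihood test, adjusted over all genes tested, with a threshold of 0.05. DESeq2 1.42.0 and limma 3.58.1 (voom) were alternatives, beside other scalings and filters, Xist status as a covariate, the replicate number as a block and leaving out mice. The code was tested on simulated data. Groups are apart where every CPM of one exceeds every CPM of the other. Paralog ratios used a pseudocount of 0.5 reads. Lengths were taken from GENCODE M21 by gene ID. Promoters came from RefSeq.

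Named genes were the paralogs and role groups, in each subunit the 3 highest and 3 lowest fold changes, the 3 smallest p and the 2 highest means, and of each related list the smallest p in each direction and the highest mean; any other gene named was chosen after its values were seen. The genes and lists were chosen with earlier results of these data known. All library pairs differed by more than counting noise, the closest being control replicates 1 and 2 with a chi-square per degree of freedom of 76.5. The labels name no litter or batch. The result of 1 related gene list is not reported here.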

Additional observations from a re-analysis of the deposited data

Results flagged for a closer look

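Rpl3-ps1, a pseudogene entry on the X chromosome outside the 87 genes, had a higher level in every sFlt1 mouse than in any control. Its mean was 18.1 CPM in sFlt1 mice and 5.27 CPM in controls. By mouse it had 684, 798 and 565 reads in sFlt1 mice, against 1, 226 and 346 in controls, and control replicate 1, at 1 read, set the low end. Its log2 fold change was 1.78 ± 1.23 (SE; unadjusted p = 0.192 and adjusted p = 0.61 in edgeR), so it did not pass.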

How the results depend on the processing

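In edgeR under every alternative run, and in DESeq2 and limma voom, 0 of the 87 genes passed. The median log2 fold change of the genes stayed between 0.19 and 0.44, and the share difference between 0.312 and 0.766 percentage points. Same-numbered mice had correlations of deviations of 0.03, 0.25 and 0.36, and differently numbered mice from -0.42 to 0.29. Deviations from a group mean sum to 0, so these values depend on one another and cannot settle whether the mice are paired. The labels name no litter or batch, and the numbers were not taken to pair the mice. With the replicate block the median was 0.32 and 0 genes passed. The count of genes with groups apart and sFlt1 higher was 15 in the analysis as reported, with Rps23rg1 included. It was 26 with library totals, against 8.74% of all genes, and 44 without both Xist libraries, against 23.5%. The run without both Xist libraries keeps sFlt1 replicate 1, mostly the highest library, and control replicate 3, the lowest for many core genes. With 1 mouse left out it ranged from 13 to 46, against 14.2% and 14.8% of all genes in those runs. The count with sFlt1 lower ranged from 0 to 3, against 12.4% of all genes in the run with 3. The cause was not tested.

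Values that changed sign were these. The Rpl36al to Rpl36a difference ranged from -0.41 to 0.12 and that of Rps4l to Rps4x from -0.44 to 0.26 with 1 mouse left out. Rpl21 was at -0.00114 with upper quartile factors, -0.00447 with a count filter of 50, -0.00204 with the replicate block, -0.00146 with the Xist covariate and -0.0242 without both Xist libraries, and ranged from -0.11 to 0.11 with 1 mouse left out. Without both Xist libraries, Rpl39l was at 1.11, Rpl7l1 at 0.00283 and Rps10 at 0.21, and with 1 mouse left out they ranged from -0.57 to 0.62, -0.31 to 0.00343 and -0.45 to 0.12. Without both Xist libraries the medians of TOP regulators, turnover genes and mitochondrial ribosomal proteins were -0.0302, -0.0297 and 0.0891, and with 1 mouse left out they ranged from -0.00523 to 0.28, -0.0215 to 0.28 and -0.13 to 0.0691. With 1 mouse left out, the lowest and highest values were -0.18 and 0.55 for Rpl41, -0.12 and 0.37 for Rplp1, -0.0736 and 0.31 for Rps15, -0.0291 and 0.34 for Rps24, -0.0342 and 0.44 for Rps3, and -0.0263 and 0.30 for Rpsa. With 3 mice per group, p-values rest on the spread between these mice, and 1 library, sFlt1 replicate 1, moved the median by more than 1.5 times.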
